A study of Macaca mulatta with 6 samples.

Results

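The ERK feedback inhibitors are 10 genes whose products dampen signalling from fibroblast growth factor (FGF) receptors to the kinase ERK: the phosphatases DUSP4, DUSP5 and DUSP6, the Sprouty proteins SPRY1, SPRY2 and SPRY4, the Spred proteins SPRED1, SPRED2 and SPRED3, and the membrane protein IL17RD. They were chosen by name among 30246 gene rows, with earlier results of these data known. Of the 10, 9 carried their symbol in the deposited tables, each on 1 row. The row of SPRY2 carried no symbol and was found by its Ensembl identifier in a table of gene names.

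The material was RNA of rhesus monkey (Macaca mulatta) fibroblasts reprogrammed to induced pluripotent stem cells (iPSCs). Naive lines of male and of female animals and primed lines of male animals gave 2 libraries each. Naive lines, named for a state likened to the epiblast before implantation, grew in a medium labelled 6SM. Its additions were serum replacement at 15%, N2, bFGF at 4 ng/ml, human LIF at 10 ng/ml and 4 kinase inhibitors: PD0325901 (0.5 µM) against MEK, CHIR99021 (3 µM) against GSK3, SB203580 (10 µM) against p38 and SP600125 (10 µM) against JNK. Primed lines, named for a state likened to the epiblast after implantation, grew in a medium labelled hESM. It held 20% serum replacement and bFGF at a concentration the labels do not give. The media thus differed in several components at once, and the effect of any single one cannot be told apart. Neither likeness to the epiblast was tested here. Feeder cells were removed before RNA was collected. The labels tie no line to a donor, and any p-value therefore speaks only for the spread among these 6 libraries.

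FGF receptors activate RAS, which acts through the kinases RAF and MEK on ERK. Active ERK switches on transcription factors of the ETS family, which in turn raise transcripts of ERK's own inhibitors, so that the pathway restrains itself. In mouse embryonic stem cells inhibitors of MEK are known to lower transcripts of several of these feedback genes, among them Dusp6 and Spry4, which are widely read as a sign of ERK activity.

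The pluripotent cell markers were checked first. The FPKM (fragments scaled to transcript length and to library depth) of 8 such genes summed to 1161 and 1264 in male naive libraries, 1626 to 1979 in female naive libraries and 455 to 522 in primed libraries, and none of the 8 was at 0 in both libraries of a group. Of the 8, 5 were called higher in naive against primed (POU5F1, NANOG, TERF1, L1TD1 and DNMT3B) and 0 lower. POU5F1, a marker of pluripotent cells, had 536 to 1160 FPKM over the 4 naive libraries, against 135 and 109 in primed ones. NANOG had 28.7 to 95.9 FPKM over the naive libraries, against only 0.933 and 2.09 in primed ones (log2 difference 4.39, adjusted p = 0.00238). Fibroblast or feeder markers (11 of 12 listed genes with a row) summed to 181 to 200 FPKM in male naive libraries, 267 to 390 in female naive libraries and 96.7 to 365 in primed libraries, with DCN at 0 in both male naive libraries, and 0 of the 9 tested were called in naive against primed. Within the primed group the sum of 365 belonged to primed 2. There COL1A1 was at 135 FPKM, COL3A1 at 28.6, LUM at 19.9 and POSTN at 13. In primed 1, with the sum of 96.7, they were at 9.24, 0.414, 0.111 and 0. COL6A3, THY1, DCN, LOX and, by less, FBLN1 (66.5 FPKM in primed 1 and 90.8 in primed 2) were also higher in primed 2. PDGFRA (0.845 in primed 1 and 0.736 in primed 2) and PDGFRB (5.2 and 4.39) were lower there. Mesoderm or primitive streak markers (7 of 8 with a row) summed to 19.9 to 32.3 FPKM in male naive libraries and 14 to 32.1 in female naive libraries, against 3.2 to 4.24 in primed libraries. Of the 4 tested, 2 were higher in naive lines (EOMES and KDR) and 0 lower, and HAND1 was at 0 in both male naive and in both primed libraries. EOMES (0.0558 and 0.393 FPKM) and KDR (0.219 and 0.308) were low in primed libraries and passed the FPKM filter only through their naive values. Neural markers (7 of 8 with a row) summed to 271 to 296 FPKM in male and 182 to 270.0 in female naive libraries. In primed libraries they summed to 223 to 236. Most of this was NES, which was not tested because its row had a failed status. Without NES the neural markers summed to 52.1 and 41.8 FPKM in male naive libraries, 15.9 and 6.97 in female naive libraries and 70.9 and 53 in primed libraries. All 4 tested neural genes had negative differences in naive against primed (median -1.15), 1 of them called (MAP2), and NEUROG2 was at 0 in all 4 naive libraries. In male naive against primed, MAP2 differed by -0.36 (adjusted p = 0.468) and TUBB3 by 0.05 (adjusted p = 0.949). Both were lower in female than in male naive lines (MAP2 -2.06, adjusted p = 0.0207, and TUBB3 -1.93, adjusted p = 0.0498). The part of such cells in the results below was not tested, and in bulk RNA a different number of cells of a type cannot be told apart from a different amount of RNA per cell. Endoderm markers (8 genes) summed to 33.9 to 34.4 FPKM in male naive libraries, 21 to 89 in female naive libraries and 32.6 to 39.7 in primed libraries, and trophoblast markers (8 genes) to 17.2 to 17.6, 8.8 to 27.1 and 7.48 to 13.5 FPKM in the same order, with 0 of 7 and 0 of 4 tested genes called. Of the trophoblast markers ELF5 was at 0 in all naive libraries. The number of fragments behind the values, estimated from the width of the deposited error bounds and called effective fragments here, was 1754857 and 1478692 in male naive libraries, 8294782 and 10013491 in female naive libraries, and 9970137 and 7607125 in primed libraries, so the male naive libraries were the least precise.

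Most of the feedback inhibitors were higher in naive than in primed lines. Of the 9 tested, 6 rose (DUSP4, DUSP5, DUSP6, SPRY1, SPRY4 and IL17RD) and 0 fell, by limma on log2(FPKM + 1) at a Benjamini-Hochberg adjusted p under 0.05 over 13685 rows. Over all rows 6.72% were called higher (920) and 4.59% lower (628). With upper-quartile scaling all rows split into 693 higher and 878 lower, and the members into 5 and 0. The difference on the log2(FPKM + 1) scale ran from 0.45 for SPRED2 to 3.95 for SPRY4, with a median of 1.47 over the 9 tested members and 0.03 over all tested rows. In 7 of the 9, all 4 naive libraries lay above both primed libraries, an order found in 18.9% of all tested rows. In 0 of the 9 did all naive libraries lie below both primed ones, as in 15.9% of all rows. Summed over the 10 genes, FPKM was 303 and 331 in male naive libraries, 323 and 457 in female naive libraries and 125 and 167 in primed libraries. SPRED3 did not reach 1 FPKM in any library and was not tested. Of the 9 tested, 8 were at 1 FPKM or more in every library, and SPRY4, below 1 in a primed library, passed through its naive values. The count of 6 depended on single libraries: it was 2 when either male naive library, naive female 2 or primed 1 was left out, and 3 when naive female 1 was, while the rows called among all numbered 177 to 463 in these refits, against 1548 with every library. Without primed 2 it was again 6, with 1081 rows called, but not of the same genes: DUSP4 (0.0577) and DUSP6 (0.0632) lost the call, and SPRY2 (0.0341) and SPRED1 (0.0405) gained it. Primed 2 had the higher fibroblast marker sum of the primed libraries (365 FPKM), and naive female 2 had a higher one still (390). The part of fibroblast or feeder cells in these calls was not tested.

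**Figure D1:**
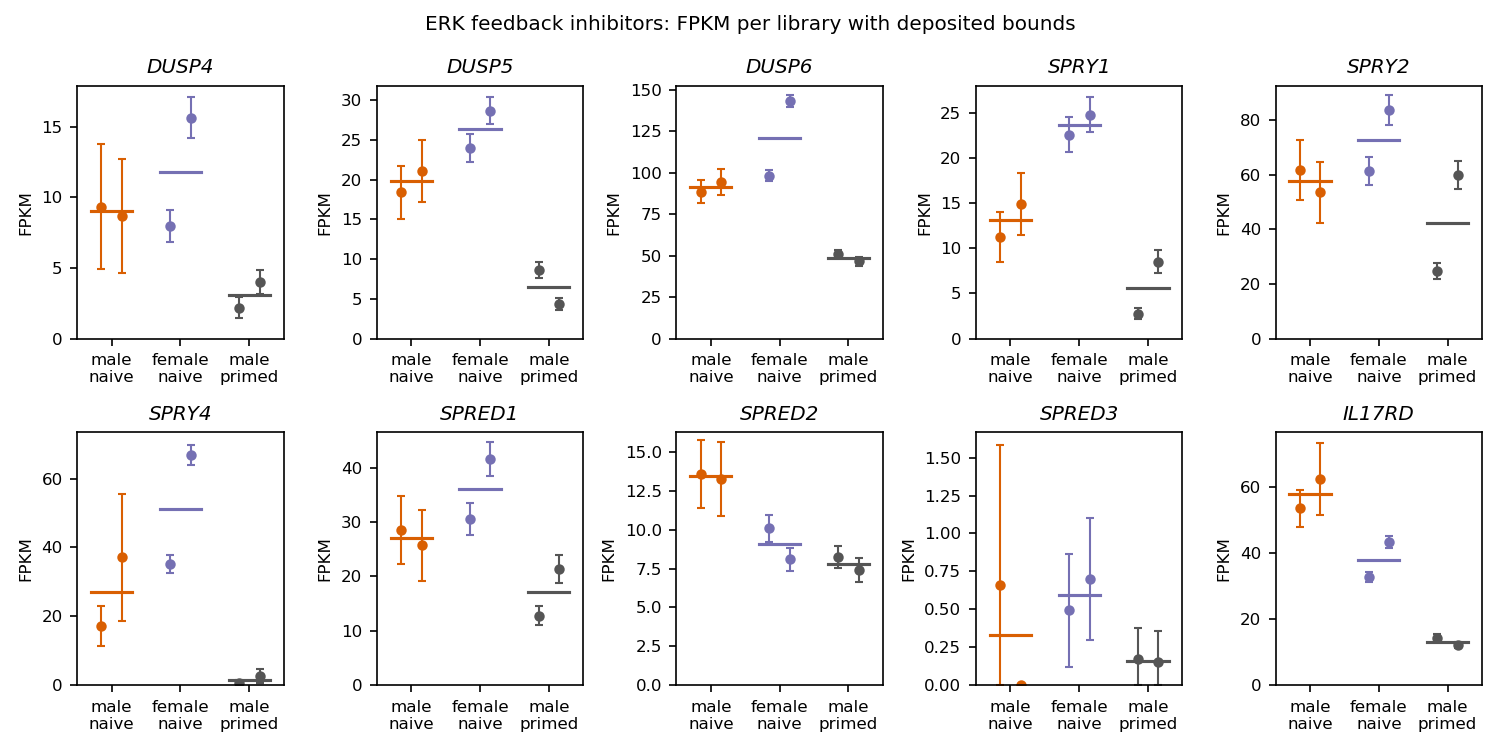
FPKM of the 10 genes in each library (points), with the deposited lower and upper bounds as bars and the group mean as a horizontal line, for male naive, female naive and male primed lines (2 libraries each, linear axes from 0). SPRY4 sits at 17.1 to 66.9 FPKM in naive and at 0.517 and 2.61 in primed libraries, while the SPRED2 and SPRY2 groups overlap.

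The DUSP proteins remove phosphate from activated MAP kinases. DUSP6 (ENSMMUG00000006227, chromosome 11, 90497441 to 90501850, in the files' own coordinates, whose genome build is not given in the sources used here) is a cytoplasmic phosphatase selective for ERK. By group mean it was the most abundant of the 10 genes in every group. Male naive libraries had 88.7 and 94.6 FPKM and female naive ones 98.4 and 143, against 51.1 and 46.5 in primed libraries. In primed 2, however, SPRY2 was higher, at 59.7 FPKM. All naive values of DUSP6 exceeded both of its primed values, and naive female 2 stood above the other naive libraries. The mean was 106 ± 25.1 FPKM in naive (SD, n = 4) and 48.8 ± 3.21 in primed lines (SD, n = 2), a fold of 2.18 between means. On the log2(FPKM + 1) scale used for every difference below, DUSP6 rose by 1.08 with a standard error (SE) of 0.17 (limma adjusted p = 0.0177). It was the most deeply measured member, on 557 to 5682 effective fragments per library. An unnamed row (chromosome 11, 90501215 to 90502637) overlaps its end and had 26.0 and 26.9 FPKM in male naive libraries, 17.7 and 30.9 in female naive libraries and 11.9 and 8.41 in primed libraries. Strand-specific counting is not stated, so reads in the overlap may belong to either row.

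DUSP5 (ENSMMUG00000009858, chromosome 9, 110198775 to 110212699), the nuclear phosphatase of ERK, had 18.4 and 21.1 FPKM in male naive libraries, 24 and 28.7 in female naive libraries and 8.63 and 4.37 in primed libraries. The groups did not overlap, and the 2 primed libraries differed from each other by more, in proportion, than the naive libraries did within either sex. Means were 23.1 ± 4.39 FPKM in naive and 6.5 ± 3.01 in primed lines, a fold of 3.55, and DUSP5 rose by 1.72 (SE 0.26, adjusted p = 0.0163). DUSP4 (ENSMMUG00000008094, chromosome 8, 29497130 to 29511012), a nuclear phosphatase that acts on ERK and on JNK, was the least abundant of the 3. It had 9.33 and 8.67 FPKM in male naive libraries, 7.96 and 15.6 in female naive libraries and 2.17 and 4.01 in primed libraries, so the lowest naive value lay 1.99-fold above the highest primed value. Its mean was 10.4 ± 3.54 FPKM in naive and 3.09 ± 1.3 in primed lines, and it rose by 1.47 (SE 0.32, adjusted p = 0.0377). DUSP4 rested on 17.9 and 18.6 effective fragments in the male naive libraries, against 33.6 to 468 in the others, and its call was lost whichever single library was left out (adjusted p from 0.052 to 0.159), as well as with no filter (0.0767), library weights (0.0611), sex ignored (0.0687) and without both male naive libraries (0.0847). DUSP5 missed the threshold without any 1 of the 4 naive libraries (0.0555 to 0.0687), and DUSP6 without naive male 1, naive male 2, primed 1 or primed 2 (0.0632 to 0.0743) or with sex ignored (0.0558).

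DUSP6 made up most of the DUSP transcript level in each library: 76.2% and 76.1% of the summed FPKM of the 3 genes in male naive libraries, 75.5% and 76.4% in female naive libraries and 82.5% and 84.7% in primed libraries. The share of DUSP5 was 15.3% to 18.4% over the naive libraries and 14.0% and 7.96% in the primed ones. The 3 DUSP genes summed to 140 ± 32.5 FPKM in naive (SD, n = 4) and 58.4 ± 4.93 in primed lines (SD, n = 2).

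Sprouty proteins are cytoplasmic inhibitors that act between the receptor and RAF. SPRY4 (ENSMMUG00000014175, chromosome 6, 138729775 to 138736808) had 17.1 and 37.1 FPKM in male naive libraries, 35.2 and 66.9 in female naive libraries, and 0.517 and 2.61 in primed libraries. The lowest naive value was 6.57-fold above the highest primed value, and the spread within each group was wide. Means were 39.1 ± 20.6 FPKM in naive and 1.56 ± 1.48 in primed lines, a fold of 25.01, or 10.5 when the mean of the lower bounds in naive is set against the mean of the upper bounds in primed libraries. SPRY4 rose by 3.95 (SE 0.48, adjusted p = 0.0104), and 0.11% of all tested rows had a larger rise. By mean FPKM it ranked 4 among the 10 genes in naive and 9 in primed lines. SPRY4 rested on 33.8 and 16.2 effective fragments in male naive libraries, 772 and 2029 in female naive libraries, and 1.4 and 6.8 in primed libraries. Per FPKM that is 1.97 and 0.44 in male naive libraries, 21.9 and 30.3 in female naive libraries, and 2.72 and 2.6 in primed libraries, so the bounds of SPRY4 were wide for its level in 4 of the 6 libraries. The adjusted p of SPRY4 was 0.0578 without primed 1 (log2 difference 3.32) and 0.05001 without naive female 2 (3.72).

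SPRY1 (ENSMMUG00000001848, chromosome 5, 115739893 to 115747082) had 11.3 and 14.9 FPKM in male naive libraries, 22.6 and 24.8 in female naive libraries, and 2.76 and 8.5 in primed libraries. The groups did not overlap, with male naive libraries between the primed and the female naive ones. Its mean was 18.4 ± 6.36 FPKM in naive and 5.63 ± 4.06 in primed lines, and SPRY1 rose by 1.63 (SE 0.37, adjusted p = 0.0425). The log2 difference was 0.97 without primed 1 (adjusted p = 0.0838), and the call was also lost without each of the naive libraries (0.0916 to 0.124). It was lost as well with a pseudocount of 0.1 (0.0525), no filter (0.0832), upper-quartile scaling (0.0513), library weights (0.0511), sex ignored (0.102) and without both male naive libraries (0.0695), so that SPRY1 was called under 6 of 17 alternatives.

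SPRY2 (ENSMMUG00000018292, chromosome 17, 60815666 to 60816555), on a row spanning only 890 bp, was the most abundant Sprouty gene. It had 61.6 and 53.5 FPKM in male naive libraries, 61.4 and 83.7 in female naive libraries, and 24.7 and 59.7 in primed libraries. Primed 2 lay among the naive values and primed 1 below all of them. The means, 65.1 ± 13 FPKM in naive and 42.2 ± 24.8 in primed lines, differed by 0.72 on the log2 scale (95% interval -0.11 to 1.55, SE 0.34, adjusted p = 0.21), which did not pass the test. The difference was 1.34 without primed 2 (adjusted p = 0.0341) and 0.10 without primed 1.

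SPRY4 was a larger part of the Sprouty transcript level in every naive library than in either primed one. It held 19.0% and 35.2% of the summed FPKM of SPRY1, SPRY2 and SPRY4 in male naive libraries, 29.5% and 38.2% in female naive libraries, and 1.85% and 3.68% in primed libraries. SPRY2 held 68.5% and 50.7% in male naive libraries and 51.5% and 47.7% in female naive libraries, against 88.3% and 84.3% in primed libraries. For both genes the naive and primed shares did not overlap, and SPRY1 held 12.5% to 18.9% in naive and 9.86% and 12.0% in primed libraries. The sum of the 3 was 123 ± 37.2 FPKM in naive and 49.4 ± 30.3 in primed lines. These shares were not tested and depend on the transcript model of each row.

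**Figure D2:**
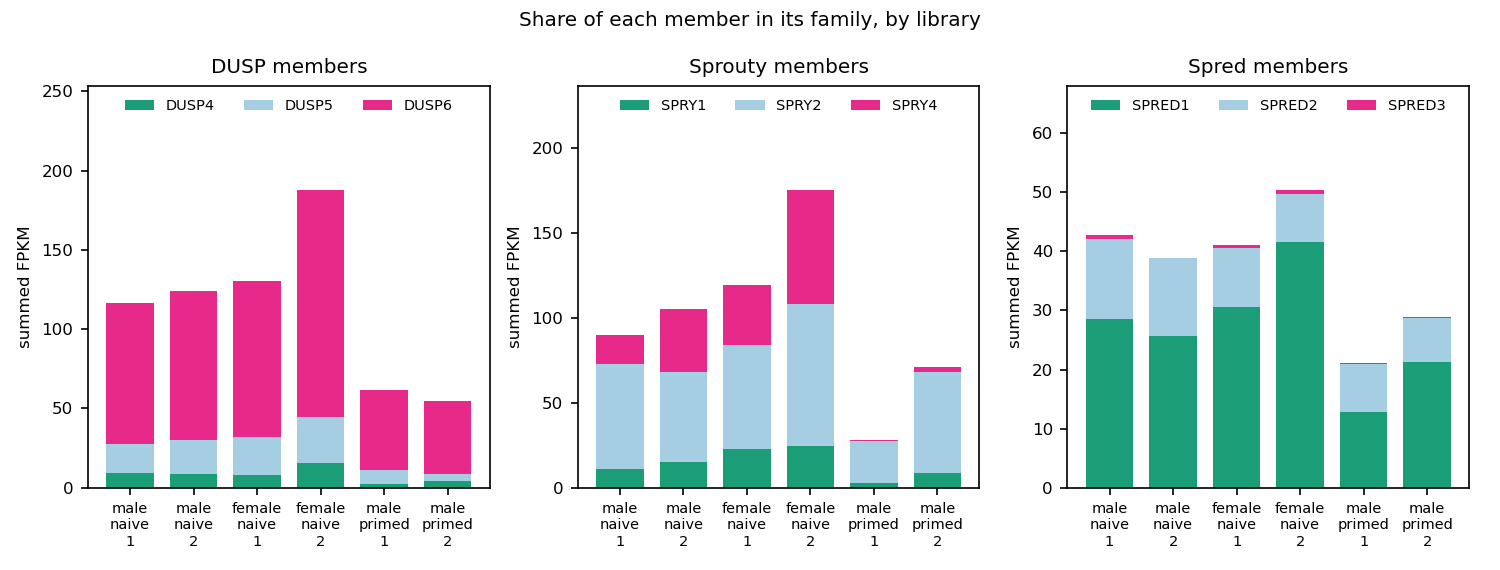
Stacked FPKM of the DUSP, Sprouty and Spred genes in each library, with male naive, female naive and then male primed libraries from left to right. SPRY4 is 19.0% to 38.2% of the Sprouty bar in naive and 1.85% and 3.68% in primed libraries, while DUSP6 is 75.5% or more of every DUSP bar.

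Spred proteins are relatives of the Sproutys that bring the RAS inhibitor neurofibromin to the membrane. Neither SPRED1 nor SPRED2, the pair that was tested, was called. SPRED1 (ENSMMUG00000010704, chromosome 7, 16558853 to 16657110) had 28.5 and 25.7 FPKM in male naive libraries, 30.6 and 41.6 in female naive libraries, and 12.8 and 21.4 in primed libraries, so all naive values were above both primed values. Its log2 difference was 0.87 (SE 0.23, 95% interval 0.30 to 1.44, adjusted p = 0.0647), and it was 1.22 without primed 2 (adjusted p = 0.0405) and 0.52 without primed 1. SPRED2 (ENSMMUG00000006012, chromosome 13, 65547328 to 65673455) had 13.6 and 13.3 FPKM in male naive libraries, 10.1 and 8.09 in female naive libraries, and 8.23 and 7.39 in primed libraries. Naive female 2 fell between the primed values, and the log2 difference of 0.45 (SE 0.16, 95% interval 0.05 to 0.85, adjusted p = 0.125) did not pass the test. These intervals are not adjusted for the number of rows tested. SPRED3 (ENSMMUG00000022975, chromosome 19, 44722197 to 44728050) was listed at 0.657 and 0 FPKM in male naive libraries, 0.493 and 0.697 in female naive libraries, and 0.174 and 0.149 in primed libraries, on 12 effective fragments or fewer, too few to compare groups.

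IL17RD (ENSMMUG00000016602, chromosome 2, 79125673 to 79283041), also called SEF, is a membrane protein that binds FGF receptors and holds back active ERK. It had 53.5 and 62.5 FPKM in male naive libraries, 32.7 and 43.3 in female naive libraries, and 14.2 and 12.1 in primed libraries. The 3 groups were separate, with male naive highest. Means were 48 ± 12.9 FPKM in naive and 13.1 ± 1.48 in primed lines, a fold of 3.65, and IL17RD rose by 1.76 (SE 0.17, adjusted p = 0.00824). It had the smallest p of the members, with 0.365% of all tested rows below it, and was called under all 17 alternatives tried for this comparison (adjusted p from 0.009 to 0.0451). The row of the homeobox gene HESX1 (chromosome 2, 79173314 to 79175160) lies inside the span of IL17RD. HESX1 had 0.686 and 1.64 FPKM in male naive libraries, 31.6 and 7.51 in female naive libraries, and 0.606 and 1.08 in primed libraries, so IL17RD was highest in the naive libraries where HESX1 was near its primed level.

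**Figure D3:**
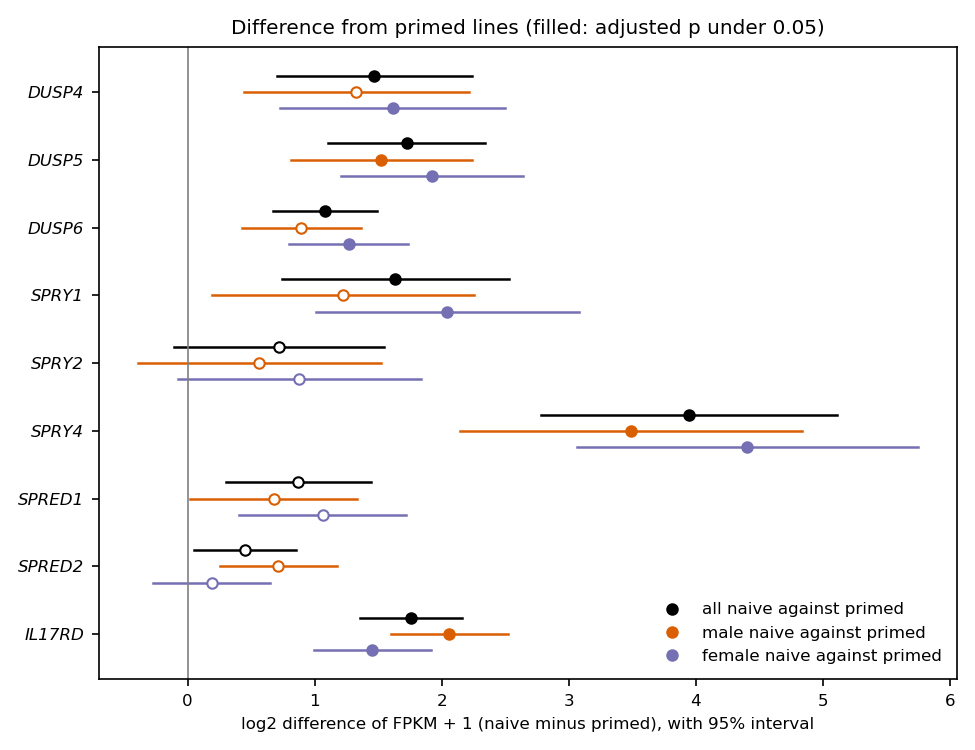
Log2 difference of FPKM + 1 from primed lines for the 9 tested genes, with its 95% interval, for all naive, male naive and female naive lines (filled points have an adjusted p under 0.05). SPRY4 has the largest difference of the 9 in all 3 comparisons, at 3.95, 3.49 and 4.41.

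Male naive and male primed lines are of the same sex, so this comparison leaves sex out. Of the 9 tested genes 3 rose and 0 fell, while 5.39% of all rows were called, 3.97% higher and 1.42% lower. IL17RD rose by 2.06 (SE 0.19, adjusted p = 0.00556), SPRY4 by 3.49 (SE 0.55, adjusted p = 0.026) and DUSP5 by 1.53 (SE 0.3, adjusted p = 0.0415). DUSP6 averaged 91.6 ± 4.17 FPKM (SD, n = 2) in male naive lines against 48.8 ± 3.21 (SD, n = 2) in primed lines, a log2 difference of 0.90 that missed the threshold (adjusted p = 0.0541). DUSP4 (1.33, adjusted p = 0.0895), SPRED2 (0.71, adjusted p = 0.0841), SPRY1 (1.22, adjusted p = 0.143), SPRED1 (0.68, adjusted p = 0.183) and SPRY2 (0.56, adjusted p = 0.419) were not called. In 8 of the 9, both male naive libraries lay above both primed libraries, as they did in 34.8% of all tested rows, and in 0 of the 9 below, against 21.6% of all rows. The count of 3 was 1 without naive male 1 and 0 without naive male 2, where IL17RD had an adjusted p of 0.0672. The call of SPRY4 held only when primed 2 was the library left out and that of DUSP5 only when primed 1 was. DUSP5 also missed the threshold with upper-quartile (0.0528), median-of-ratios (0.0538) and quantile scaling (0.0526), no filter (0.0785), the replicate block (0.0796) and a fit to the compared groups alone (0.0966), and was called under 5 of 16 alternatives. SPRY4 missed it with no filter (0.0604) and in the fit to the compared groups alone (0.062), IL17RD in neither. In that fit to the compared groups alone DUSP6 was called. DUSP6 passed without either female naive library (0.0458 and 0.0462) and SPRY1 without primed 2 (0.029).

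Female naive and male primed lines differ in sex as well as in state. Of the 9 genes 6 rose and 0 fell, against 11.0% of all rows called, 5.55% higher and 5.41% lower. Both female naive libraries lay above both primed ones in 8 of the 9 (27.1% of all rows) and below them in 0 (31.9% of all rows). SPRY4 rose by 4.41 (SE 0.55, adjusted p = 0.0112), SPRY1 by 2.04 (SE 0.43, adjusted p = 0.0361), DUSP5 by 1.92 (SE 0.3, adjusted p = 0.0164), DUSP4 by 1.62 (SE 0.37, adjusted p = 0.0436), IL17RD by 1.45 (SE 0.19, adjusted p = 0.0118) and DUSP6 by 1.27 (SE 0.19, adjusted p = 0.0162). The differences of SPRED1 (1.06, adjusted p = 0.0572), SPRY2 (0.88, adjusted p = 0.193) and SPRED2 (0.19, adjusted p = 0.553) did not pass. The count fell to 2 when naive female 1 or primed 1 was left out and to 0 when naive female 2 was. Among the marker genes THY1, listed as a fibroblast marker, was higher in female naive lines (2.86, adjusted p = 0.0413). Of the 9 tested fibroblast markers, however, only 3 had positive differences here, with a median of -0.10. The neural genes TUBB3 (-1.89, adjusted p = 0.0297) and MAP2 (-2.42, adjusted p = 0.00922) were lower in female naive lines. DUSP4 lost its call whichever library was left out (0.0555 to 0.185), and SPRY1 did so without any library but primed 2 (0.0552 to 0.177). SPRY4 missed the threshold without either female naive library or primed 1 (0.051 to 0.0891), DUSP5 without either female naive library (0.08 and 0.12), DUSP6 without naive female 2 or either primed library (0.0511 to 0.0766), and IL17RD without naive female 2 (0.0827). Without primed 2, SPRY2 (0.0293) and SPRED1 (0.0338) passed. With no filter DUSP4 (0.084) and SPRY1 (0.0711) were lost, in the fit to the compared groups alone the same pair (0.0847 and 0.0695), and with library weights DUSP4 (0.0611). This comparison and the preceding ones share the primed libraries, so they are not independent of each other.

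Set directly against each other, female and male naive lines gave no called difference among the 9 genes, where limma called 3.31% of all rows, 0.76% higher and 2.55% lower in female lines. At an unadjusted p under 0.05 there were 2, against 21.7% of all rows. IL17RD was at 38 ± 7.54 FPKM in female and 58 ± 6.34 in male naive lines (log2 difference -0.61, 95% interval -1.07 to -0.14, adjusted p = 0.145). SPRED2 was at 9.09 ± 1.41 FPKM in female and 13.4 ± 0.235 in male naive lines (-0.52, 95% interval -0.99 to -0.06, adjusted p = 0.188). The other 7 differences were positive, up to 0.92 for SPRY4 (95% interval -0.43 to 2.26, adjusted p = 0.399) and 0.82 for SPRY1 (-0.21 to 1.85, adjusted p = 0.328). Both female naive libraries lay above both male ones in 4 genes (DUSP5, DUSP6, SPRY1 and SPRED1), as in 19.4% of all rows, and below them in 2 (IL17RD and SPRED2), as in 37.6%. Over all rows the median log2 difference in this comparison was -0.10. A rise called in 1 sex of naive line and missed in the other is thus not shown to differ between them.

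By mean FPKM the order in naive lines was DUSP6, SPRY2, IL17RD, SPRY4, SPRED1, DUSP5, SPRY1, SPRED2, DUSP4 and SPRED3. The ranges of neighbours in that order overlapped, except that every DUSP6 value lay above every SPRY2 value and every DUSP4 value above every SPRED3 value. In primed lines the order was DUSP6, SPRY2, SPRED1, IL17RD, SPRED2, DUSP5, SPRY1, DUSP4, SPRY4 and SPRED3. There SPRY2 and SPRED1, IL17RD and SPRED2, and SPRY4 and SPRED3 were separate, and the other neighbours overlapped.

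The same comparison was described for other genes of the pathway. Of 15 tested ERK output genes, 7 rose and 1 fell in naive against primed lines, with a median log2 difference of 0.82. Over all tested rows 6.72% were called higher and 4.59% lower. ETV4, an ETS factor induced by ERK, was at 55.2 and 62.4 FPKM in male naive libraries, 88.1 and 169 in female naive libraries, and 1.92 and 10.5 in primed libraries. It rose by 3.89 (SE 0.55, adjusted p = 0.0147), and its relative ETV5 rose by 2.82 (SE 0.44, adjusted p = 0.0177). MYC, a growth-promoting transcription factor, rose by 3.22 (SE 0.34, adjusted p = 0.00966) and FOSL1, an AP-1 subunit, by 2.03 (SE 0.32, adjusted p = 0.0181). FOSL1 was at 0.182 and 0.639 FPKM in primed libraries and passed the FPKM filter only through its naive values. The receptor EPHA4 fell by 1.53 (SE 0.19, adjusted p = 0.011). Its difference from primed was -2.41 in female naive lines (adjusted p = 0.00711) and -0.65 in male ones (adjusted p = 0.133). Female and male naive lines also differed in EPHA4 (-1.75, adjusted p = 0.0155). The immediate early factor EGR1, named after its values were seen, was at 151 and 170 FPKM in male naive libraries, 121 and 87.7 in female naive libraries, and 151 and 92.8 in primed libraries, and its groups overlapped.

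Of 15 tested genes of the RAS-RAF-MEK-ERK core 1 rose and 0 fell, with a median of 0.04: RRAS2, a RAS-related GTPase, rose by 0.82 (SE 0.12, adjusted p = 0.0167). The genes of the kinase that PD0325901 inhibits were named after their values were seen. MEK1 (MAP2K1) differed by 0.42 (adjusted p = 0.316) and MEK2 (MAP2K2) by -0.55 (adjusted p = 0.136). Of 13 FGF receptors and adaptors 1 rose and 1 fell (median -0.07), namely the adaptor SHC1 (1.03, SE 0.17, adjusted p = 0.021) and the receptor FGFR1 (-0.50, SE 0.1, adjusted p = 0.0309). Single calls among 15 and among 13 genes are close to the shares over all tested rows (6.72% higher, 4.59% lower). Among the 7 tested of 12 FGF ligands 2 rose and 1 fell (median 0.41). FGF1 rose by 2.69 (SE 0.36, adjusted p = 0.0131) and FGF2, the ligand also added to the media, by 2.03 (SE 0.38, adjusted p = 0.027), while FGF3 fell by 3.63 (SE 0.36, adjusted p = 0.00824). FGF1 was at 0 and 0.534 FPKM in primed libraries and passed the FPKM filter only through its naive values. FGF3 was at 0 to 0.764 FPKM in naive libraries and passed it only through its primed values.

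Genes listed as other inhibitors of the pathway were counted in the same way, without a test against the 10 chosen genes. Of 10 other MAP kinase phosphatases 1 rose and 0 fell, with a median of 0.41. The 1 was DUSP2, a nuclear phosphatase, at 4.34 ± 2.09 FPKM in naive and 1.43 ± 0.679 in primed lines (1.08, SE 0.25, adjusted p = 0.0476). Of 12 genes listed as other negative regulators 1 rose and 1 fell (median 0.16). The ubiquitin ligase CBL rose by 0.74 (SE 0.15, adjusted p = 0.0349). The membrane protein FLRT3, which is not an established inhibitor of the pathway, fell by 0.96 (SE 0.21, adjusted p = 0.0384). With 6.72% of all tested rows called higher and 4.59% lower, these single calls are not read as a result about either list.

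**Figure D4:**
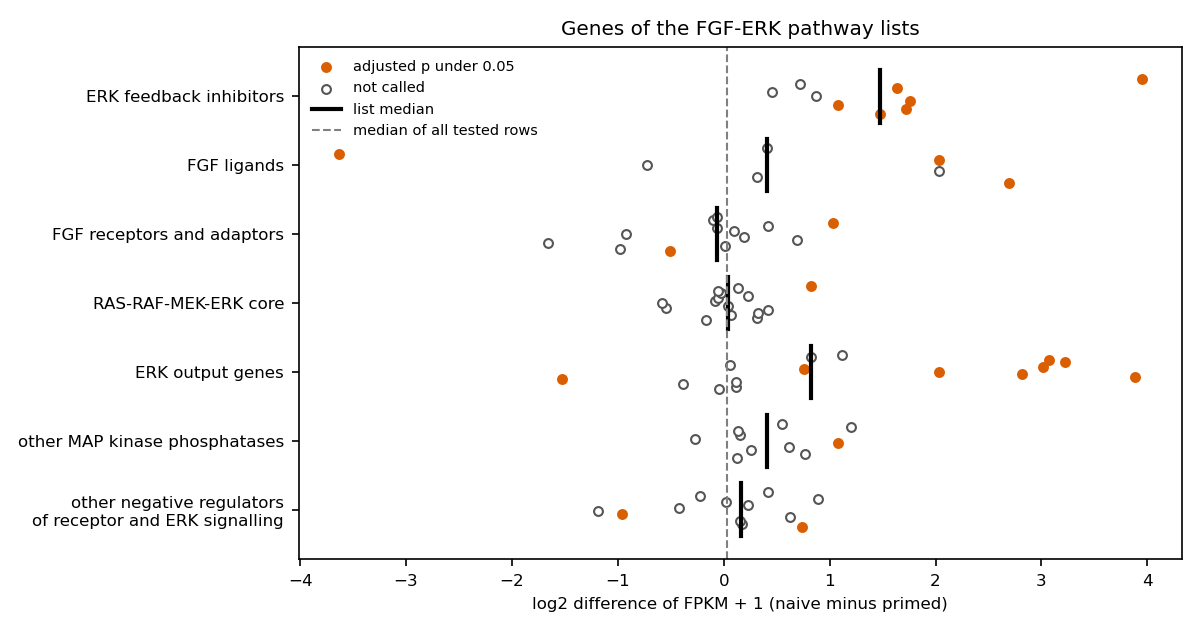
Log2 difference of FPKM + 1 in naive against primed lines for each tested gene (points, filled where the adjusted p is under 0.05) of the feedback inhibitors and 6 other lists of the pathway, with each list's median as a black bar and the median of all tested rows as a dashed line. The medians are 1.47 for the feedback inhibitors, 0.82 for ERK output genes and 0.04 for the RAS-RAF-MEK-ERK core.

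Across the 6 libraries, log2(FPKM + 1) of SPRY4 had a Pearson r of 0.958 with DUSP4, 0.948 with DUSP6, 0.947 with SPRY1, 0.925 with SPRED1, 0.887 with DUSP5, 0.853 with IL17RD, 0.791 with SPRY2 and 0.445 with SPRED2. SPRED2 was thus the member least like it, and was likewise least like DUSP6 (0.367). The named genes most like SPRY4 were VCP (0.998), WDR26 (0.996) and SH2B3 (0.994), and those most like DUSP6 were EFHD2 (0.996), TCF15 (0.995) and C14ORF4 (0.995). The 6 points are the libraries of 3 groups, so any gene that separates the groups in the same order scores high: 226 of 12097 named genes had an r above 0.95 with SPRY4 and 198 with DUSP6.

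**Figure D5:**
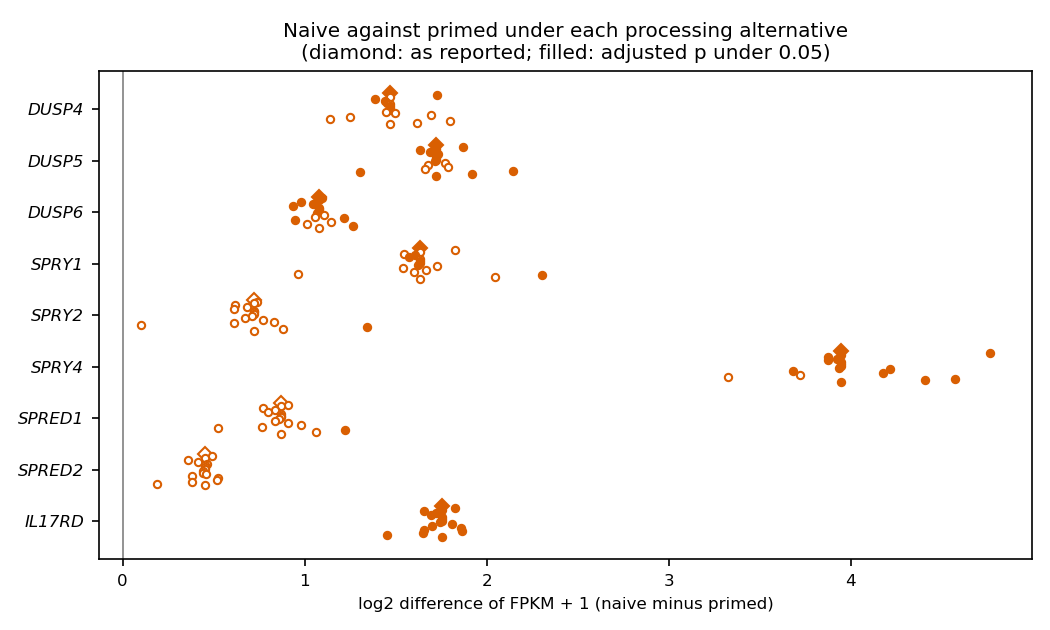
Log2 difference of FPKM + 1 in naive against primed lines for the 9 tested genes under the reported processing (diamonds) and 17 alternatives (circles), filled where the adjusted p is under 0.05. All values are above 0, IL17RD is filled throughout and SPRED2 in none.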

How the data were processed

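Bulk RNA of 6 iPSC libraries was measured. The aligner was TopHat 1.3.0, as named in the submitters' processing notes, and neither genome build, annotation nor quantifier version is given in the sources used here. The authors deposited FPKM per library for 30246 Ensembl gene rows, each with a status and a confidence range, per the file headers, and state no scaling between libraries. Taking the distance from an FPKM to its upper bound as 2 SD, its effective fragments are the squared ratio of FPKM to SD. This covers counting error only and understates the fragments where bounds are wide for other reasons.

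The rows tested, 13685 in number, reached an FPKM of 1 in 2 libraries or more, and 40 rows with a failed status were dropped. On the log2(FPKM + 1) scale, limma 3.58.1 (R 4.3.3) estimated group means with a trended prior on 3 residual degrees of freedom. Tests were two-sided, with Benjamini-Hochberg adjustment over all tested rows. Differences on this scale understate changes of low genes. Naive against primed sets the mean of both naive groups against primed. Naive means ± SD are over 4 libraries of both sexes. The file symbols name 22292 rows and a table of gene names another 728.

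Members and lists were chosen with earlier results of these data known. Named from each list were up to 4 called genes per direction with the smallest p. Genes were named as like SPRY4 or DUSP6 by the 3 highest Pearson r over the 6 libraries. Alternatives were another pseudocount (0.1), no filter, 3 scalings, library weights, a replicate block, summed rows, other sets of libraries, and, chosen after seeing the data, scaling without rows under 300 bp. No protein or promoter sequence was used here.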

Additional observations from a re-analysis of the deposited data

How the results depend on the processing

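Over the 4 comparisons, the log2 differences of the 9 tested genes were recomputed 585 times: 499 kept their direction and their side of the threshold, 76 kept the direction but lost the call, 8 gained it and 2 changed sign. The 2 were SPRY2 in male naive against primed without primed 1 (-0.056; -0.056 to 1.18 over the libraries left out) and DUSP4 in female against male naive lines without naive female 2 (-0.16; -0.16 to 0.74), neither called. Genes called higher in naive against primed numbered 3 with sex ignored, 4 with no filter, with library weights and without both male naive libraries (DUSP4 and SPRY1 lost in all 4 settings), 5 with a pseudocount of 0.1, and 2 to 6 when 1 library was left out. In male naive against primed they numbered 1 with no filter on FPKM and 0 to 3 without 1 library, and in female naive against primed 0 to 6. In female against male naive lines they numbered 0 throughout. Leaving out a library removes a residual degree of freedom, and the rows called among all then numbered 177 to 1081 in naive against primed, against 1548. With upper-quartile scaling 693 rows were called higher and 878 lower over all rows, against 920 and 628 as reported, and the members numbered 5 higher and 0 lower. The median log2 difference of female against male naive lines over all rows, -0.10 as reported, was 0.03 with median-of-ratios scaling, where the median of the 9 genes was 0.52, against 0.37 as reported.

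Same-numbered libraries did not deviate together (Pearson's r of deviations across genes -0.26 to -0.05), so the numbers were not treated as pairs. With the replicate block 6 of the genes were called higher in naive against primed and 2 in male naive against primed, while the rows called among all were 812. Few effective fragments limit DUSP4 in male naive libraries and SPRED3 in all. The bounds of SPRY4 were wide in male naive and primed libraries, and the primed ones were about as deep as the female naive ones.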
